A study of Mus musculus with 14 samples.

Results

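Glypicans and syndecans are the membrane-bound carriers of heparan sulfate, and their transcripts were followed here in 14 cultured skeletal cell clones. The members were the 6 glypican genes (Gpc1 to Gpc6) and the 4 syndecan genes (Sdc1 to Sdc4) of the mouse, taken by gene symbol, which makes 10 of the 30503 genes in the count table. Of these, 8 had enough reads to be tested. Gpc3 and Gpc5 did not.

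A glypican is held in the outer leaflet of the membrane by a glycosylphosphatidylinositol anchor, whereas a syndecan spans the membrane and has a short cytoplasmic tail. Both carry long sulfated heparan sulfate chains that bind fibroblast growth factors, Wnts, bone morphogenetic proteins and hedgehog proteins at the cell surface. In the skeleton such chains are known to shape how far these factors spread and how strongly receptors are engaged in cartilage and bone.

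Each library was made from 1 clone grown from a single tdTomato+ cell of femur bone marrow, cut free of the growth plates, after a tamoxifen pulse at P21. All clones carried the Fgfr3-creER driver and the R26R(tdTomato/+) reporter, so only cells with Fgfr3-creER activity at the pulse, and their progeny, were marked. The Fgfr3-WT group held 5 clones isolated at P23 and grown for 8 passages. The Fgfr3-p53 cKO clones carried Trp53 fl/fl in addition, with 5 isolated at P28 and grown for 8 passages and 4 isolated at 4 months of age (P4M) and grown for 6 to 8 passages. A clone had to survive these passages to be sequenced. The paper reports that wild-type clones reached the last of these passages much more slowly than clones of the younger cKO group. It also reports that a smaller share of wild-type clones reached it. Equal passage numbers are thus not equal times in culture. The labels do not say how many mice gave the clones, so p-values measure the spread between clones, which may share an animal. The sample names begin with 1303 in Fgfr3-WT and with 2963 in both cKO groups. These prefixes are read here as separate submissions, which the labels do not state. Genotype, age and submission therefore cannot be told apart in any comparison with Fgfr3-WT. Neither can time in culture and clone survival be separated from them. The comparison of P4M with P28 lies within 1 submission. In it, age at isolation, time since the pulse and passage number (6 to 8 against 8) cannot be told apart.

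Library totals ranged from 25688946 to 52857424 counts. Trp53, the floxed gene, lay between 49.9 and 68.2 CPM (counts scaled to library size) in the Fgfr3-WT clones and between 1.72 and 2.84 CPM in the 9 cKO clones, which matched every label. Fgfr3-WT clone 1 was the only one with more than 1 CPM over 4 Y-linked genes (300 CPM, against at most 0.0396 CPM in any other clone). The sum of the 8 osteoblast markers ran from 1044 to 3833 CPM in Fgfr3-WT, 15202 to 22621 CPM in P28 and 9964 to 54996 CPM in P4M, and none of the 8 stayed under 1 CPM throughout a group. Most of this sum was Spp1 in each Fgfr3-WT clone and Col1a1 in each cKO clone. Spp1 itself went the other way, with means of 2109 CPM in Fgfr3-WT, 416 CPM in P28 and 834 CPM in P4M. Ibsp had no counts in 4 of the 5 Fgfr3-WT clones. The 8 chondrocyte markers summed to 1938 to 25754 CPM in Fgfr3-WT, 1843 to 2987 CPM in P28 and 74.4 to 639 CPM in P4M, with Matn3 under 1 CPM in every Fgfr3-WT and every P4M clone, and Col9a1 in every P28 and every P4M clone. The hematopoietic Ptprc, Adgre1 and Itgam stayed under 1 CPM in every clone, whereas the macrophage genes Cd68 and Lyz2 reached 54.3 and 90.6 CPM in Fgfr3-WT, 2.10 and 19.5 CPM in P28, and 5.61 and 7.42 CPM in P4M. The endothelial Pecam1 and Cdh5 stayed under 1 CPM in every clone, and Kdr reached 0.569 CPM in Fgfr3-WT, 4.11 CPM in P28 and 12.6 CPM in P4M. S100b, on the glial list and also a gene of chondrocytes, was at 47.9 to 614 CPM in Fgfr3-WT, 0.837 to 4.13 CPM in P28 and 4.23 to 59.8 CPM in P4M, with Sox10 under 1 CPM throughout. These marker levels differed between groups together with the genes described below, and their part in those differences was not tested. In cultured bulk samples, fewer cells of a type and less RNA per cell cannot be told apart.

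For 4 genes, the 100 bases before the RefSeq transcription start are shown (GRCm38.p6), a pair with high and a pair with hardly any transcript in these clones. Each runs 5′ to 3′ on the strand of its gene, and capitals mark the GC box, GGGCGG on either strand.

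Sdc4, chr2:164443189-164443288, minus strand: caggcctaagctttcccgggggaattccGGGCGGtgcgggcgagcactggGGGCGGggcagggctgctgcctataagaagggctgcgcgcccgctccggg

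Sdc3, chr4:130792437-130792536, plus strand: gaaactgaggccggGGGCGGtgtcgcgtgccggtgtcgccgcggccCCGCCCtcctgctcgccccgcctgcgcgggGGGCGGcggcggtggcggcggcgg

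Gpc3, chrX:52613975-52614074, minus strand: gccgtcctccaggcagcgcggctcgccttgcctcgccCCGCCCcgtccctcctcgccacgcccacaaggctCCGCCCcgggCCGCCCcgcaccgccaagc

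Gpc5, chr14:115092115-115092214, plus strand: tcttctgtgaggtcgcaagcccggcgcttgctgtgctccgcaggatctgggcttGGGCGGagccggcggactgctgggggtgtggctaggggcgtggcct

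In the 250 bases before the start, the GC box occurred 4 times in Sdc4, 3 times in Sdc3, 3 times in Gpc3 and 1 time in Gpc5. It was present in each of the 7 members with a RefSeq window (Gpc2, Gpc3, Gpc4, Gpc5, Sdc1, Sdc3 and Sdc4), against 32.9% of 27025 genes. G and C made up 51.2% of these 250 bases in Gpc5 and 66.0% to 76.4% in the other members, against a median of 52% over all genes. The motif share was not corrected for this. The abundant pair and the scarce pair thus both held this motif, which is a description of the letters and not of a binding event.

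Per unit of transcript length, Sdc2 was the most abundant member in every Fgfr3-WT clone, and Gpc1 and Sdc3 led in every P4M clone but 1, where Sdc3 was followed by Sdc2. Levels between genes are given as TPM, which corrects for transcript length and library size. Sdc2, a syndecan of mesenchymal cells, stood at 566 ± 285 TPM in Fgfr3-WT (SD, n = 5), above Sdc3 at 209.8 ± 100.1 TPM, Sdc4 at 196 ± 63.6 TPM and Gpc1 at 141 ± 53.5 TPM. The last 3 overlapped within their SDs. Gpc4 (94.3 ± 54.0 TPM), Sdc1 (66.0 ± 47.0 TPM) and Gpc6 (37.5 ± 21.9 TPM) formed the lower end of the Fgfr3-WT order, each within 1 SD of its neighbour.

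In the P28 clones Sdc2 (281 ± 83.4 TPM, n = 5) and Gpc1 (241 ± 119.9 TPM) did not differ beyond their spread, and Sdc3 followed at 177 ± 143 TPM. In the P4M clones the order opened with Sdc3 at 494 ± 146 TPM (n = 4) and Gpc1 at 451 ± 92.5 TPM, which also lay within their spread. Sdc2 came after them at 214 ± 128 TPM, with Sdc4 at 80.5 ± 22.1 TPM and Sdc1 at 70.1 ± 19.7 TPM next. Gpc4 (28.6 ± 2.32 TPM) and Gpc6 (17.9 ± 2.30 TPM) closed it. Gpc2 stayed below all of these in each group, at 4.27 ± 6.77 TPM in Fgfr3-WT, 10.98 ± 1.72 TPM in P28 and 1.67 ± 1.52 TPM in P4M.

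**Figure D1:**
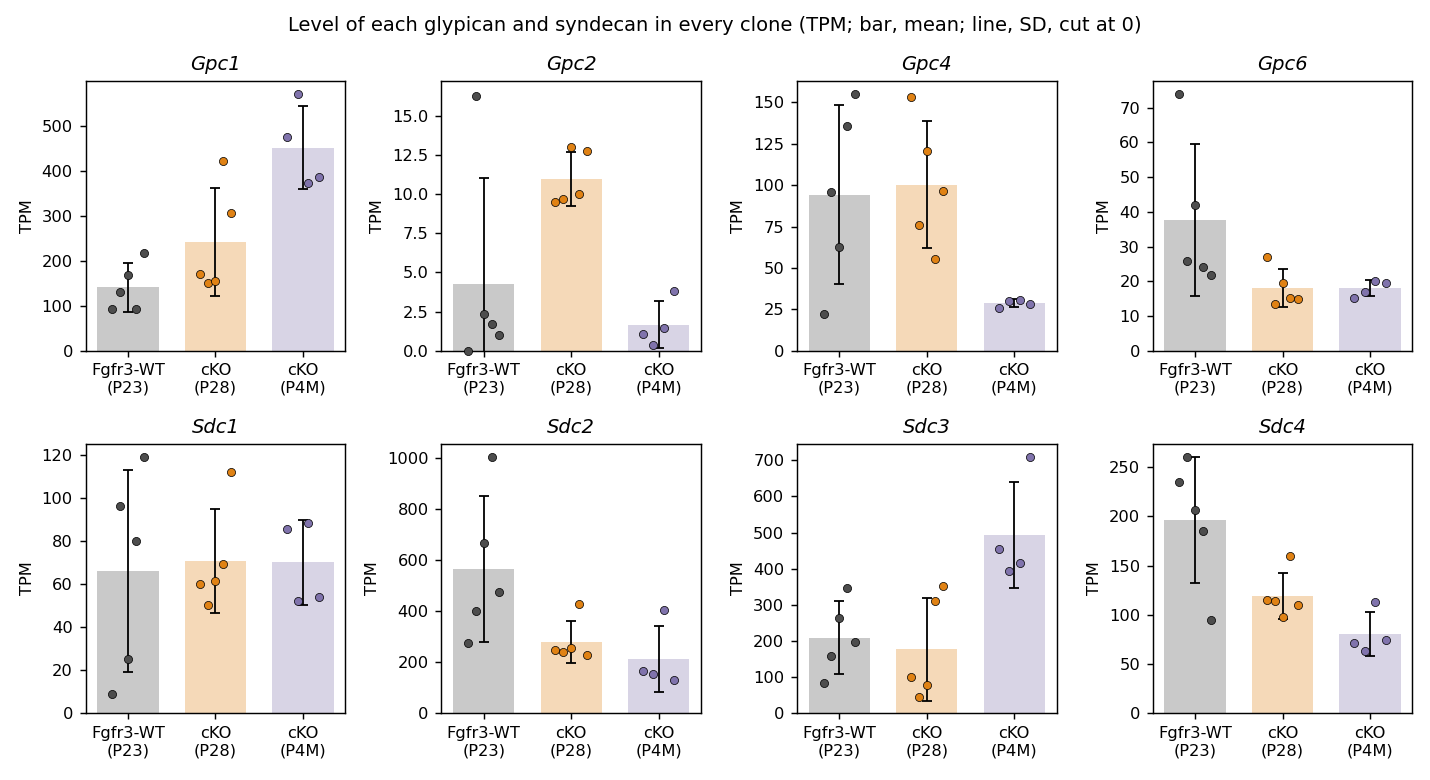
Level in TPM (vertical axis, from 0) of the 8 tested members in each clone (points) of the 3 groups (horizontal axis), with the group mean (bar) and SD (line, cut at 0). Gpc1 and Sdc3 have their highest means in P4M, Gpc4 is lowest and tightest there, and Sdc2 and Sdc4 have their highest means in Fgfr3-WT.

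The 10 genes together made up 1315 ± 393 TPM in Fgfr3-WT, 1019 ± 324 TPM in P28 and 1358 ± 81.1 TPM in P4M, so the pool differed between groups by less than the spread of the Fgfr3-WT clones. Its make-up differed more. Syndecans supplied 78.0 ± 6.31% of the pool in Fgfr3-WT, 63.2 ± 2.80% in P28 and 62.8 ± 8.75% in P4M. The lowest Fgfr3-WT clone (69.2%) lay above the highest P28 clone (65.8%), whereas 1 P4M clone reached 70.7%.

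Sdc2 alone was 41.2 ± 8.62% of the pool in Fgfr3-WT, 28.4 ± 6.03% in P28 and 15.5 ± 8.44% in P4M. Gpc1 was 11.3 ± 4.25%, 22.8 ± 3.98% and 33.6 ± 8.77% in the same order, and Sdc3 was 15.2 ± 3.35%, 15.4 ± 9.13% and 36.3 ± 9.87%. Every cKO clone held a larger share of Gpc1 (lowest 19.4%) than any Fgfr3-WT clone (highest 16.9%). Shares within a clone do not depend on how libraries are scaled. These shares are a description, with no test.

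**Figure D2:**
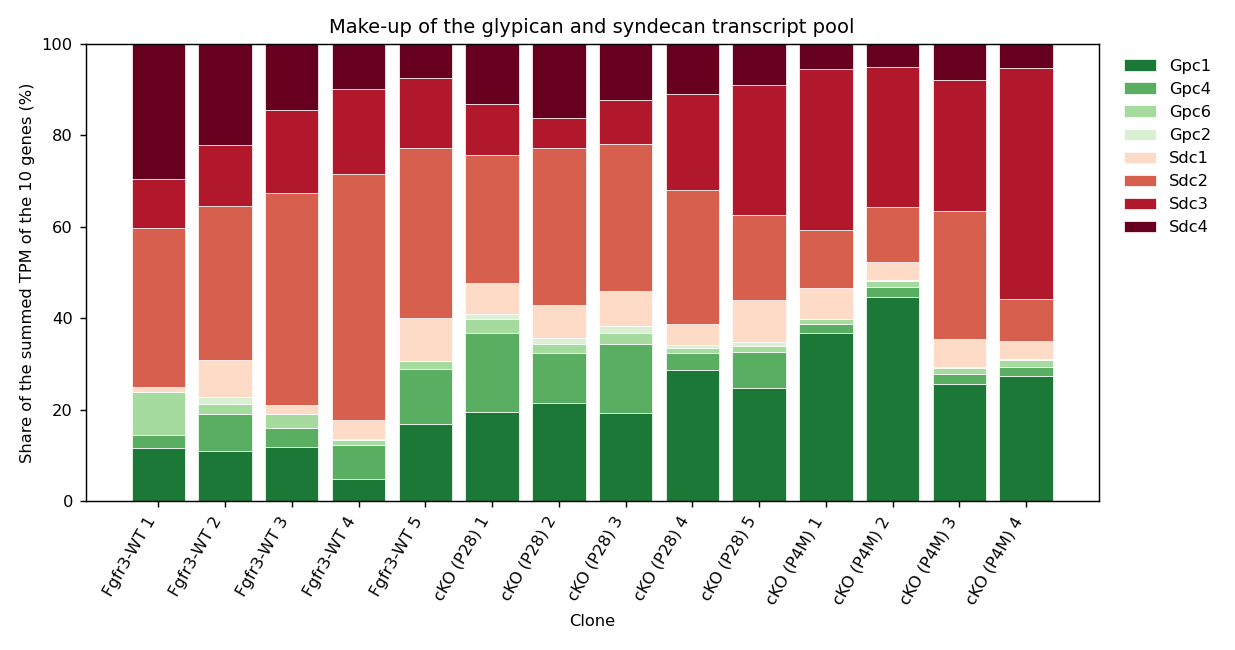
Share of the summed TPM of the 10 genes (vertical axis, percent) taken by each member in each clone (horizontal axis). Glypicans are green and syndecans are pink to dark red. Sdc2 is the widest band in all 5 Fgfr3-WT clones, and Sdc3 or Gpc1 is the widest in all 4 P4M clones.

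Differences between groups were tested on the counts with the quasi-likelihood F-test of edgeR, with Benjamini-Hochberg adjustment over 17358 genes, and a gene was called at an adjusted p below 0.05. In P28 against Fgfr3-WT, 3 of the 8 tested members fell (Gpc6, Sdc2 and Sdc4) and 0 rose, where 19.7% of all tested genes fell and 19.2% rose. In P4M against Fgfr3-WT, 4 fell (Gpc4, Gpc6, Sdc2 and Sdc4) and 1 rose (Gpc1), where 23.6% of all genes fell and 22.3% rose. With both cKO groups averaged, the same 5 were called in the same directions, where 25.7% of all genes fell and 23.1% rose. The median log2 fold change of the 8 was -0.74 in that comparison and -0.05 over all genes. A difference among the 3 groups was called for 5 of the 8, against 50.6% of all genes. With 8 genes, these are counts only, and nothing particular to the members is read from them. The comparisons with Fgfr3-WT share the same 5 control clones.

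**Figure D3:**
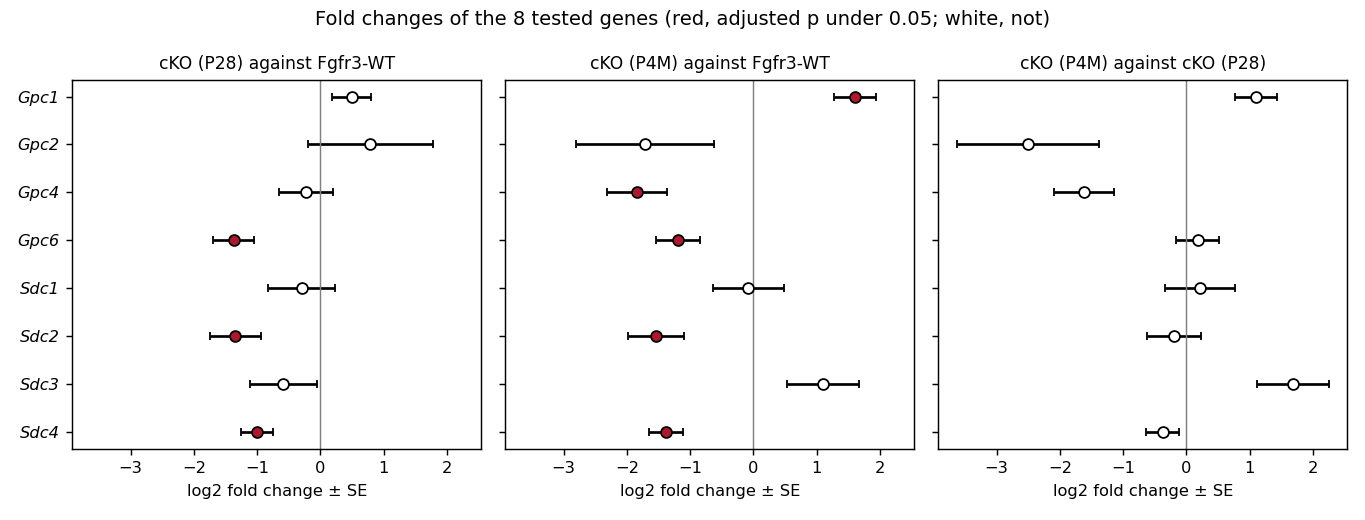
Log2 fold change with its SE (horizontal axes) of the 8 tested members (rows) in the 3 pairwise comparisons (panels), with red points for genes called at an adjusted p below 0.05. Gpc6, Sdc2 and Sdc4 are red and negative in both comparisons with Fgfr3-WT, Gpc1 is red and positive in P4M against Fgfr3-WT, and no point is red in P4M against P28.

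Among the glypicans, Gpc1 was the one that rose. Gpc1 is a broadly expressed glypican known as a low-affinity partner of fibroblast growth factors. Its level was 251, 383, 484, 311 and 614 CPM in Fgfr3-WT clones 1 to 5. In P28 clones 1 to 5 it was 419.9, 381, 367, 994 and 717 CPM. In P4M clones 1 to 4 it was 1298, 1613, 1022 and 1033 CPM. All P4M clones lay above all Fgfr3-WT and P28 clones, and within P28 the clones 4 and 5 stood above the other 3. P4M exceeded Fgfr3-WT by 1.60 ± 0.33 on the log2 scale (± SE), or 3.04-fold (adjusted p = 0.00186 by edgeR), and the call held in all 14 fits that left out 1 clone. The P28 difference was 0.50 ± 0.31 (adjusted p = 0.229), which does not show the absence of a change.

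Gpc4 is an X-linked glypican whose human counterpart is known from a syndrome of the face and the digits. It measured 37.4, 172, 110.1, 280.0 and 269.5 CPM in the Fgfr3-WT clones and 230.5, 118, 175, 80.5 and 139.6 CPM in the P28 clones. The P4M clones gave 42.9, 52.4, 52.0 and 46.9 CPM. P4M was thus narrow and below every P28 clone, and below every Fgfr3-WT clone except clone 1. Against Fgfr3-WT it fell by 1.84 ± 0.47 on the log2 scale, 3.58-fold (adjusted p = 0.00694 by edgeR), while in P28 the difference was -0.22 ± 0.42 (adjusted p = 0.707). The call for both cKO groups averaged (log2 fold change -1.03, adjusted p = 0.0324) was lost without Fgfr3-WT clone 2, 4 or 5 or without P4M clone 1 or 4, with adjusted p up to 0.108 and a log2 fold change between -1.30 and -0.79 over the 14 fits. In clone 1, the one with Y-linked genes above 1 CPM, the median X-linked gene stood at -1.45 on the log2 scale relative to the remaining Fgfr3-WT clones and to the median autosomal gene. In the cKO clones, set against the Fgfr3-WT mean, it stood between -0.54 and -0.16. The part of this in the Gpc4 values was not tested.

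Gpc6, a glypican whose human counterpart is known from a short-limbed skeletal dysplasia, fell in both cKO groups. It was at 155, 52.2, 82.2, 56.2 and 41.7 CPM in Fgfr3-WT, at 46.0, 23.0, 32.8, 24.2 and 23.5 CPM in P28, and at 30.0, 33.9, 36.5 and 34.8 CPM in P4M. Fgfr3-WT clone 1 stood far above the rest. P4M did not overlap with Fgfr3-WT, and only P28 clone 1 exceeded the lowest Fgfr3-WT clone. The difference was -1.37 ± 0.33 in P28 (2.59-fold lower, adjusted p = 0.00515 by edgeR) and -1.19 ± 0.35 in P4M (2.29-fold lower, adjusted p = 0.0133). Without clone 1 these log2 fold changes were at their weakest, -0.99 and -0.78, and both were still called. P4M and P28 differed by 0.18 ± 0.34 (adjusted p = 0.788).

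Gpc2, a glypican of the developing nervous system, was low and uneven. Fgfr3-WT clones had 0.0326, 29.5, 4.21, 4.04 and 1.82 CPM. P28 clones kept within 11.3 to 16.2 CPM, and P4M clones had 1.80, 0.364, 2.03 and 5.45 CPM. The P28 clones all lay above the P4M clones, while Fgfr3-WT clone 2 was the highest of the 14 and clone 1 the lowest. None of its differences was called, the largest being P4M against P28 (log2 fold change -2.50 ± 1.13, adjusted p = 0.18 by edgeR). The gene lies almost wholly within the annotated span of Gm43720 on the same strand (6304 shared bases), and reads that fit both may have been left uncounted.

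Gpc3 and Gpc5 were scarcely detected. Gpc3, the X-linked glypican known from an overgrowth syndrome, had 0 to 14 counts per library and at most 0.301 CPM. Gpc5 had 7 counts in Fgfr3-WT clone 1, 2 counts in P28 clone 1 and none in the other 12 libraries, where a count of 0 allows up to 0.121 CPM (3 counts, covering counting error only). Both sit beside a detected glypican. Gpc3 lies 107173 bases from Gpc4 on chromosome X, and Gpc5 lies 400135 bases from Gpc6 on chromosome 14. At this depth no difference between groups was detectable for either.

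Of the 4 syndecans, 2 fell in both cKO groups. Sdc2 has a tail that binds PDZ proteins such as syntenin. Its Fgfr3-WT clones spanned 639, 981, 1608, 2833 and 1134 CPM. The P28 clones were at 509, 511, 512, 851 and 454 CPM, and the P4M clones at 382, 365, 939 and 295 CPM. Only P28 clone 4 and P4M clone 3 exceeded the lowest Fgfr3-WT clone, each standing alone above its own group. The difference was -1.34 ± 0.41 in P28 (2.54-fold lower, adjusted p = 0.0188 by edgeR) and -1.54 ± 0.44 in P4M (2.91-fold lower, adjusted p = 0.012). The P28 call was lost without Fgfr3-WT clone 4, the highest one (log2 fold change -0.94, adjusted p = 0.0559).

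Sdc4, a focal adhesion syndecan that binds protein kinase C alpha through its tail, measured 366, 429, 334, 351 and 151 CPM in Fgfr3-WT. It was at 159, 163, 130.5, 213 and 146 CPM in P28 and at 111, 100.8, 176 and 114 CPM in P4M. Apart from Fgfr3-WT clone 5, every Fgfr3-WT clone lay above every cKO clone. The difference was -1.01 ± 0.25 in P28 (2.01-fold lower, adjusted p = 0.00669 by edgeR) and -1.38 ± 0.27 in P4M (2.60-fold lower, adjusted p = 0.00135). With both cKO groups averaged it had the lowest adjusted p of the members (0.000562), and the call held in each fit that left out 1 clone (highest adjusted p 0.0022).

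Sdc3, a syndecan of nerve, muscle and growth plate cartilage, took its lowest and its highest values in the cKO clones. Fgfr3-WT gave 277, 556, 903, 1392 and 673 CPM. In P28 the clones 1 to 3 were at 293, 137 and 222 CPM and the clones 4 and 5 at 888 and 995 CPM. The P4M clones were at 1492, 1340.4, 1389 and 2307 CPM. P4M thus lay above all P28 clones, but overlapped with Fgfr3-WT clone 4. The difference from Fgfr3-WT was -0.59 ± 0.53 in P28 (adjusted p = 0.41 by edgeR) and 1.10 ± 0.56 in P4M (adjusted p = 0.125), neither of which was called.

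Sdc1, the syndecan of epithelia and plasma cells, was spread most in Fgfr3-WT, at 17.0, 206, 49.7, 189 and 228 CPM. The P28 clones were at 98.1, 84.5, 96.1, 108 and 176 CPM, and the P4M clones at 159, 100.02, 166 and 98.8 CPM. Both cKO groups lay inside the Fgfr3-WT range. The log2 fold change was -0.30 ± 0.53 in P28 (adjusted p = 0.688 by edgeR) and -0.08 ± 0.56 in P4M (adjusted p = 0.922). Jchain and Mzb1 of plasma cells and Epcam, Krt8 and Krt18 of epithelia were under 1 CPM in every clone. Cdh1, the remaining gene of the epithelial list, had no counts in Fgfr3-WT and reached 6.26 CPM in P28 clone 1 and 3.53 CPM in P4M clone 2.

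P4M against P28, the comparison within 1 submission, asked whether clones of the same genotype taken later differed. Of the 8 members 0 were called by edgeR, where 3.34% of all genes rose and 3.88% fell. Before adjustment, 4 had a p below 0.05. These were Gpc1 (log2 fold change 1.11 ± 0.33, adjusted p = 0.0576) and Sdc3 (1.69 ± 0.57, adjusted p = 0.084) on the higher side, and Gpc4 (-1.62 ± 0.47, adjusted p = 0.0539) and Gpc2 on the lower side. For the same 4 the P4M and P28 clones did not overlap, which held for 19.0% of all genes. DESeq2 called 3 of the 8 (Gpc1, Gpc4 and Sdc3), where it called 15.1% of all genes. Fitted to these 2 groups alone, edgeR called 3 (Gpc1, Gpc2 and Gpc4) and 17.9% of all genes, and limma on log2(TPM + 1) called 2 (Gpc2 and Gpc4) and 9.04% of all genes. Without Fgfr3-WT clone 1 or clone 5, edgeR called Gpc1 and Gpc4, along with 12.2% and 8.62% of all genes. Without P28 clone 4 it called Gpc1 (4.78% of all genes), and without P28 clone 5 it called Sdc3 (8.19%). The direction of these 4 was the same in every one of these fits. Of all genes called in this comparison 46.3% were higher in P4M, a share that was 33.2% without scaling factors and 23.9% by limma on log2(TPM + 1).

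In P4M against Fgfr3-WT 2 of the 8 members did not overlap (Gpc1 and Gpc6), against 33.6% of all genes. With all 9 cKO clones against Fgfr3-WT it was 0 of 8, against 18.1%.

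The P28 clones 4 and 5, which were highest in Gpc1 and Sdc3 within their group, were also the highest in 5 of the 8 osteoblast markers (Runx2, Sp7, Alpl, Bglap and Ibsp), but not in Col1a1, Spp1 or Dmp1. Sp7, a transcription factor required for bone formation, was at 3.38, 9.78 and 5.47 CPM in P28 clones 1 to 3 and at 293 and 289.5 CPM in clones 4 and 5. Ibsp, a bone matrix protein, was at 1.53, 0.550 and 0.795 CPM in the first 3 and at 445 and 147 CPM in the other 2. In Fgfr3-WT the highest Gpc1 value and the highest Sp7 value (38.7 CPM, against at most 0.191 CPM in the others) both belonged to clone 5. In P4M, clone 2 had the highest Gpc1, Sp7 (666 CPM) and Ibsp (1124 CPM). Sdc3 was highest in Fgfr3-WT clone 4, where Sp7 was at 0.0569 CPM and Ibsp had no counts, and in P4M clone 4, where Sp7 (441 CPM) and Ibsp (282 CPM) were below those of clone 2. P28 clones 1 to 3 and P28 clones 4 and 5 also stood apart in the pairwise comparison of clones given with the processing below. Markers outside the osteoblast list separated them as well. Fabp4 was at 65.5 and 167 CPM in P28 clones 4 and 5, against at most 2.62 CPM in clones 1 to 3. Lepr and Pparg were also higher in clones 4 and 5, Cebpa overlapped, and Adipoq and Plin1 stayed under 1 CPM. Of the stromal list, Prrx1 (61.5 and 4.53 CPM, against at least 562 CPM) and Pdgfrb were lower. Nt5e was slightly higher and the rest overlapped. The share of all genes split in this way was not computed. The part of osteoblast gene expression in the Gpc1 and Sdc3 values was not tested.

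**Figure D4:**
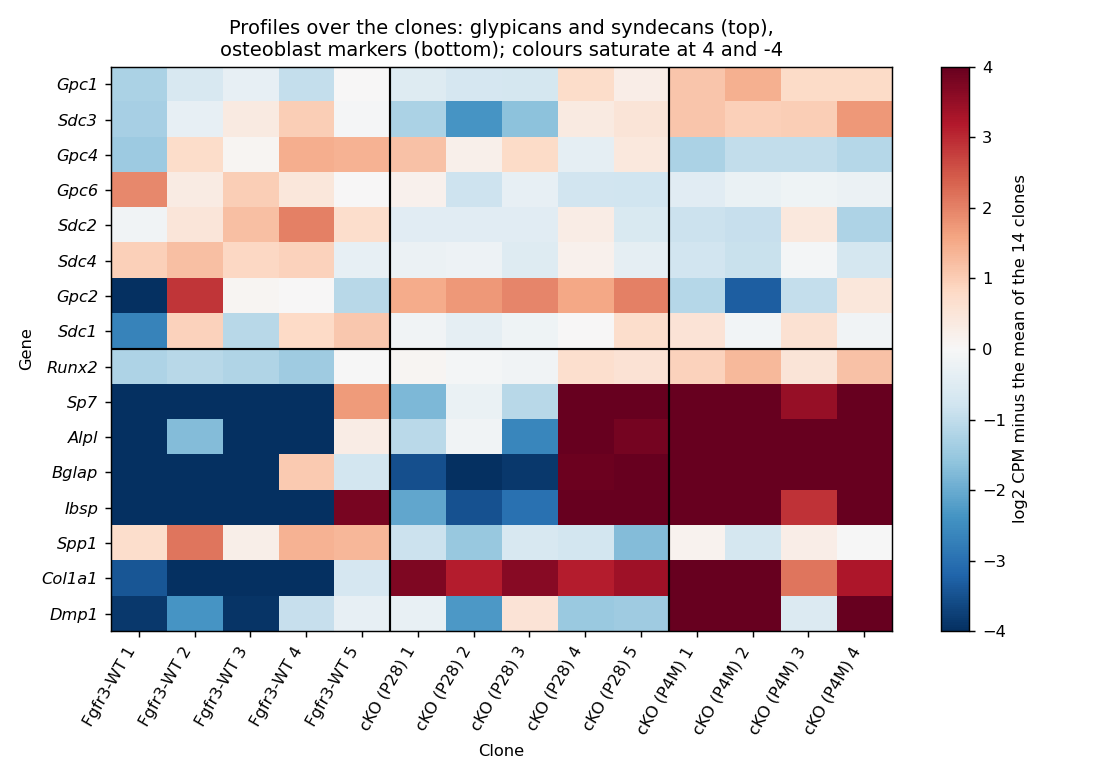
Log2 CPM minus the mean of the 14 clones (colour, red above and blue below, saturating at 4 and -4) for the 8 members and the 8 osteoblast markers (rows) in each clone (columns). P28 clones 4 and 5 share the red of the P4M clones in Sp7, Alpl, Bglap and Ibsp. In Gpc1, P28 clone 5 is paler than the P4M clones, while P28 clone 4 is close to P4M clones 3 and 4. In Sdc3, P28 clones 4 and 5 are paler than the P4M clones and Fgfr3-WT clone 4. Dmp1 is blue in P28 clones 4 and 5 and dark red in 3 of the 4 P4M clones, and Gpc4 in P4M is blue throughout.

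Spread within a group was set against 9660 genes whose log2 CPM averaged 3 or more. The widest was Gpc2, itself below that level, with an SD of log2 CPM of 3.09 in Fgfr3-WT (percentile 99.2) and 1.54 in P4M (percentile 99.4), but 0.23 in P28 (percentile 50.2). The SD of Sdc3 in P28 was 1.26, at percentile 98.2 of these genes, and that of Sdc1 in Fgfr3-WT was 1.65, at percentile 96.8. Gpc4 went from 1.196 in Fgfr3-WT (percentile 93.9) to 0.14 in P4M (percentile 28.8), and Gpc6 from 0.74 to 0.12. The median gene itself went from 0.39 in Fgfr3-WT to 0.20 in P4M.

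The genes whose profile over the 14 clones was nearest to that of a member were named by the root mean square difference of centred log2 CPM, among the same 9660 genes. For Gpc1 they were Tpst2 (0.28), Cmip (0.30) and Otud1 (0.35), where Gpc1 itself had an SD of 0.81. Sdc3, with an SD of 1.17, had Shox2 (0.41), Pxdc1 (0.51) and Snx10 (0.64). For Sdc4 they were Igip, Spg7 and Rftn2 (0.29 to 0.31, SD 0.68), and for Gpc6 they were Pde4dip, Zfp938 and Slc8b1 (0.29 to 0.31, SD 0.73). The nearest to Gpc4 were L3mbtl3, Eif2ak2 and Bhlhb9 (0.44 to 0.46, SD 0.99) and those to Sdc1 were Pdk3, Sh3bgrl and Rab7b (0.49 to 0.50, SD 0.94). Gpc2, with an SD of 2.23, had Sorbs2, Loxl1 and Eya4 at 1.29 to 1.35.

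The enzymes and partners that build, cut and use heparan sulfate were described from 9 lists of 74 genes, of which 65 were tested. With both cKO groups averaged, 20 rose (30.8%, against 23.1% of all tested genes), 12 fell (18.5%, against 25.7%) and 33 were not called. In P4M against P28, 5 rose (7.69%, against 3.34%) and 2 fell (3.08%, against 3.88%). The lists below hold 3 to 13 tested genes each, so that their counts, to be read against these shares of all genes, are a description only.

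Of the genes that release or edit these proteoglycans at the cell surface, Notum and Hpse rose from Fgfr3-WT to P28 and from P28 to P4M. Notum, a secreted hydrolase first described as a releaser of glypicans and known as a Wnt deacylase, was between 0.0285 and 0.356 CPM in Fgfr3-WT. It was at 1.94, 4.14, 2.13, 10.6 and 11.6 CPM in P28 and at 64.9, 118, 24.5 and 95.0 CPM in P4M, with no overlap between any of the groups. P4M exceeded P28 by 3.64 ± 0.66 on the log2 scale (adjusted p = 0.0097 by edgeR). Hpse, the heparanase that cuts heparan sulfate chains, had 2 counts in 1 Fgfr3-WT clone and 0 in the other 4, between 0.753 and 1.67 CPM in P28 and between 3.37 and 33.9 CPM in P4M. Its P4M level exceeded that of P28 by 3.41 ± 0.69 (adjusted p = 0.0138).

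Sulf1, a sulfatase that removes 6-O-sulfates from the chains outside the cell, went the other way. It was between 22.4 and 96.4 CPM in P28 and between 1.34 and 7.37 CPM in P4M, a log2 fold change of -4.36 ± 0.995 (adjusted p = 0.0224 by edgeR), and the Fgfr3-WT clones spanned 0.652 to 78.6 CPM. Of the shedding and processing genes, Mmp14, a membrane-bound metalloproteinase that can cleave syndecans, rose 3.82-fold with both cKO groups averaged (log2 fold change 1.93 ± 0.29, adjusted p = 0.000153). Furin fell (-0.82 ± 0.15, adjusted p = 0.000644). Mmp9 rose and Gpld1 fell as well, so that 3 of the 7 genes of this list rose and 2 fell. The rise of Mmp9 was near the floor, from 0 to 3 counts per Fgfr3-WT clone. Its range was 0.154 to 7.18 CPM in P28, with a median of 0.454 CPM, and 0.158 to 1.80 CPM in P4M.

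Of the 7 linker genes, which start chain assembly, 2 fell and 0 rose with both cKO groups averaged, where 25.7% of all genes fell and 23.1% rose. Xylt1, which starts the linker on the core protein, went from 143 ± 121 CPM in Fgfr3-WT to 12.3 ± 10.2 CPM in P28 and 6.36 ± 3.45 CPM in P4M (log2 fold change with both averaged -4.01 ± 0.64, adjusted p = 0.000261 by edgeR), and B3gat3, which completes it, fell by 0.85 on the log2 scale. Of the 5 polymerization genes Extl3 rose (0.78 ± 0.12, adjusted p = 0.000193) and Extl2 fell (-0.38 ± 0.15, adjusted p = 0.0444), the latter losing its call in 10 of 14 fits that left out 1 clone. The copolymerase genes Ext1 and Ext2 were not called.

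Among 12 tested sulfation and epimerization genes 3 rose (Ndst2, a call lost in 9 of 14 fits that left out 1 clone, Hs3st3a1 and Hs3st3b1) and 2 fell (Hs6st1 and Hs3st5). Hs3st3a1 was low, with no counts in 4 of the 5 Fgfr3-WT clones, 0.908 to 7.66 CPM in P28 and 0.752 to 2.40 CPM in P4M. Hs3st1, a 3-O-sulfotransferase, was between 0.154 and 1.89 CPM in P28 and between 5.08 and 45.5 CPM in P4M (log2 fold change 3.92 ± 1.10, adjusted p = 0.0481 by edgeR), a call lost in 11 of 14 fits that left out 1 clone. Ndst2, an N-deacetylase and sulfotransferase, was lower in P4M than in P28 (-0.72 ± 0.18, adjusted p = 0.0305), a call lost in 7 such fits. Of the sulfate donor genes Papss1 rose by 0.48, while Papss2 and the sulfate transporter Slc26a2 fell by 1.62 and 1.19 on the log2 scale, with both cKO groups averaged.

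Of the 7 cytoplasmic partners of syndecans 4 rose and 1 fell with both cKO groups averaged, against 23.1% and 25.7% of all genes. Sdcbp, which encodes syntenin, rose by 0.65 ± 0.20 (adjusted p = 0.0148 by edgeR), Sdcbp2 by 1.43 ± 0.32 from under 1 CPM, and Gipc1 by 0.57 ± 0.16. Of the 6 other heparan sulfate proteoglycans tested, Hspg2 (perlecan of basement membrane and cartilage) rose by 1.23 ± 0.23 (adjusted p = 0.000886), Col18a1 rose by 2.28 ± 0.72 and the intracellular Srgn fell by 4.87 on the log2 scale, from a Fgfr3-WT range of 0 to 37.3 CPM.

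Of the 13 tested ligands that bind heparan sulfate 5 rose and 1 fell with both cKO groups averaged, against the same 23.1% and 25.7% of all genes. Bmp4 rose from at most 2.77 CPM in Fgfr3-WT to between 24.5 and 114.7 CPM in the cKO clones (log2 fold change 6.48 ± 0.96, adjusted p = 0.000159 by edgeR). Bmp2 rose by 4.33 ± 0.72 (adjusted p = 0.000336) and Wnt5a by 2.01 ± 0.23 (adjusted p = 2.47e-05), each without overlap between Fgfr3-WT and cKO clones. Vegfa and Pdgfa were higher in P4M than in P28, by 1.33 ± 0.29 (adjusted p = 0.0196) and 1.61 ± 0.34 (adjusted p = 0.0166).

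**Figure D5:**
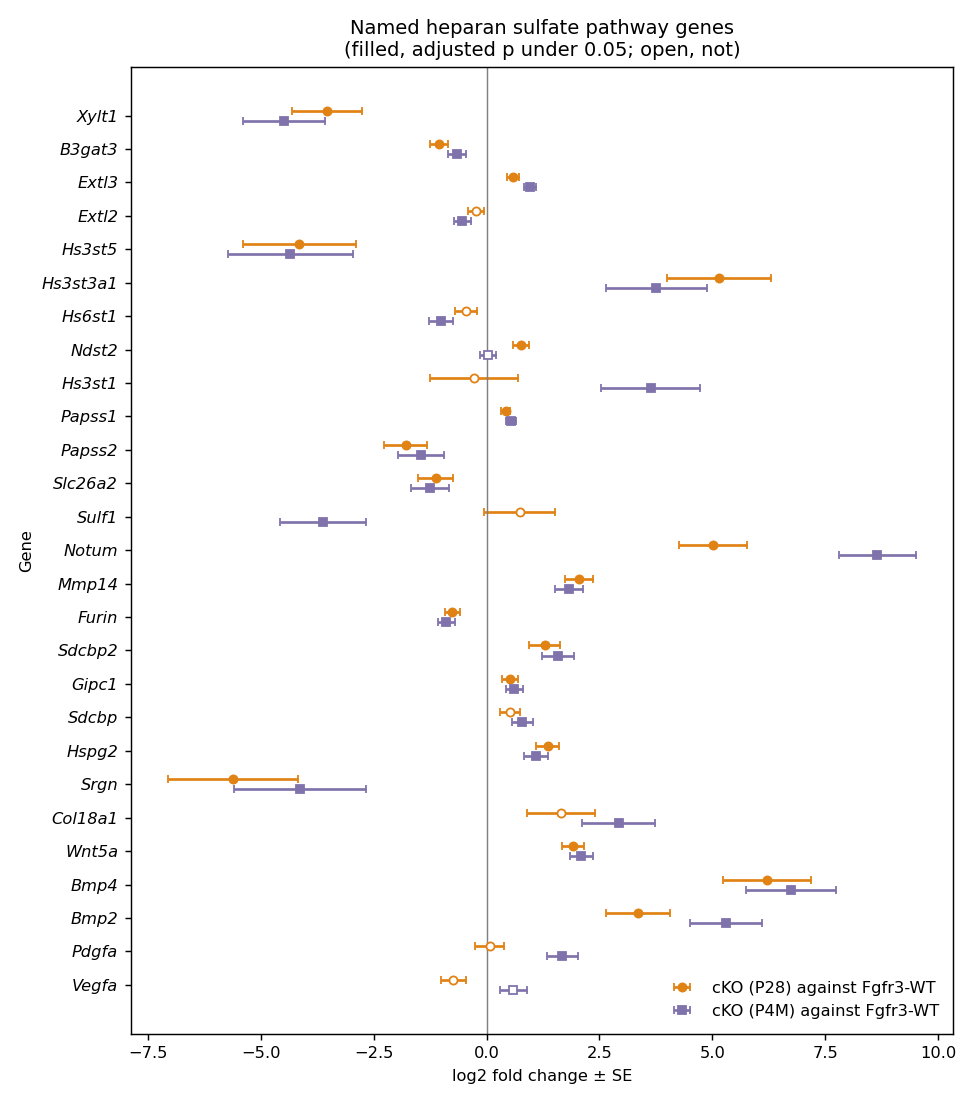
Log2 fold change with its SE (horizontal axis) of the named pathway genes (rows) in P28 (circles) and P4M (squares) against Fgfr3-WT, filled where called at an adjusted p below 0.05. Notum and Bmp4 are among the 3 farthest to the right and Xylt1, Hs3st5 and Srgn are the 3 farthest to the left in both. Sulf1 and Hs3st1 are among the genes filled in P4M alone. Hpse is left out, as it was near 0 in Fgfr3-WT.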

How the data were processed

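RNA from each clone was amplified with a SMART-Seq v4 kit and sequenced as single-end reads without strand information. The authors aligned the reads to mm10 with TopHat and Bowtie2 and deposited raw counts per Ensembl gene made with HTSeq from reads that mapped without ambiguity. The authors also deposited TPM, made with a program not given in the sources used here. Reads shared by overlapping genes may be uncounted, and reads of antisense genes cannot be separated.

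Counts were tested with edgeR 4.0.16 in R 4.3.3 (TMM scaling, low-count filter by group, 1 model of 3 groups over 14 clones). P values were adjusted by Benjamini-Hochberg over 17358 genes and called below 0.05. No submission term could be fitted, because each submission holds a single genotype. CPM were computed from the TMM-scaled library totals, and log2 CPM used a prior count of 2. Alternatives were DESeq2 1.42.0, limma 3.58.1 on log2(TPM + 1), RLE or no scaling, no filter, a minimum of 10 counts per gene in each clone, a minimum absolute log2 fold change of 1, a fit of only the groups compared, and leaving out each clone. No 2 clones of a group agreed within sampling noise (chi-square per degree of freedom at least 66.0). In P28, this value was 66.0 to 130 between clones 1 to 3 and 86.7 between clones 4 and 5. For every pair across these sets of P28 clones it was higher, at 217 to 256.

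The members and lists were chosen with earlier results of these data known. Named pathway genes were, per list, up to 3 with the lowest adjusted p among those called with both cKO groups averaged, and any called in P4M against P28. Genes counted beside them (Mmp9, Gpld1, Hs3st3b1, Ext1, Ext2) and the osteoblast markers Sp7 and Ibsp, among a list of 8, were named after their values were seen. So were the adipocyte, reticular and stromal markers that separate the P28 clones. Positions are from GENCODE M21 (GRCm38, the build of mm10) and promoter windows from RefSeq. Some items that these rules take are not reported here.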

Additional observations from a re-analysis of the deposited data

Results flagged for a closer look

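Each of the 8 tested members was checked in each group for a clone far from the rest (24 checks, of which chance alone flags about 1 in 20). Sdc2 in P28 clone 4 stood above the other 4 P28 clones by a gap of 0.807 of the whole range of log2 CPM. Sdc4 in Fgfr3-WT clone 5 stood below the other 4 by a gap of 0.761 of the range. Without P28 clone 4 and without Fgfr3-WT clone 5, in turn, Sdc2 and Sdc4 were still called lower in P28 and in P4M than in Fgfr3-WT.

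In 7 pathway genes the change from Fgfr3-WT differed between P28 and P4M by the edgeR test of that difference. The log2 fold change of P4M against P28 was -0.72 for Ndst2, 3.92 for Hs3st1, -4.36 for Sulf1, 3.41 for Hpse, 3.64 for Notum, 1.33 for Vegfa and 1.61 for Pdgfa. Of the members, 0 were called in this comparison.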

How the results depend on the processing

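The members called were counted under 8 alternatives and 14 fits that each left out 1 clone. In P4M against Fgfr3-WT 5 were called in every one. In P28 against Fgfr3-WT and with both cKO groups averaged, the counts stayed within 1.5 times 3 and 5. In P4M against P28, where 0 were called, DESeq2 and the fit of these groups alone each called 3, limma on log2(TPM + 1) called 2, no scaling factors 1 and a minimum of 10 counts per gene in each clone 1, and fits that left out 1 clone called 0 to 2. Pathway genes called with both cKO groups averaged went from 32 to 20 at a minimum absolute log2 fold change of 1. In P4M against P28 they went from 7 to 14 with DESeq2 (which called 15.1% of all genes), 16 with these groups alone (17.9% of all genes) and 3 to 11 when 1 clone was left out (11 without Fgfr3-WT clone 3, 3 without P4M clone 2). The cause was not tested. A fit of only the groups compared does not exist for the averaged contrast.

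Of the called members, Sdc2 (log2 fold change -0.91, adjusted p = 0.056) and Sdc4 (-0.66, adjusted p = 0.0511) lost the P28 call by limma on log2(TPM + 1), which called Gpc2 (1.91, adjusted p = 0.0174). Gpc4 lost the averaged call there (-0.57) and without a filter (-0.97). On that scale the median tested gene shifted by 0.20 in P28 and 0.05 in P4M against Fgfr3-WT, by -0.14 in P4M against P28 and by 0.13 with both averaged, against -0.02, -0.06, -0.01 and -0.05 on the counts, and the share of calls that were higher was 72.6% against 49.4% in P28, 57.5% against 48.6% in P4M and 64.3% against 47.4% with both averaged.

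Values that were not called and changed sign were Gpc4 in P28 (0.28 by limma, -0.50 to 0.016 with 1 clone left out), Sdc1 in P28 (0.53 by limma), Sdc1 in P4M (0.53 by limma, 0.0027 without a filter, -0.37 to 0.18 with 1 clone left out), Sdc2 in P4M against P28 (-0.69 to 0.025 with 1 clone left out), and, with both averaged, Gpc2 (0.75 by limma, -0.88 to 1.19) and Sdc1 (0.53 by limma, -0.48 to 0.070), again with 1 clone left out. No paired analysis was possible because the labels give the clones no shared replicate numbers. Depth limits Gpc3 and Gpc5, and in Fgfr3-WT also Hpse, Mmp9 and Hs3st3a1, and otherwise the number and spread of the clones limits the precision.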

Other observations

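The median shift of each member's chromosome was measured in every clone, over genes whose log2 CPM averaged 3 or more, as the log2 difference from Fgfr3-WT after the median autosomal gene was subtracted. On chromosome 4, which carries Sdc3, the 9 cKO clones stood between 0.28 and 0.58 and the Fgfr3-WT clones, each set against the others, between -0.41 and 0.38. On chromosome 14, which carries Gpc5 and Gpc6, the cKO clones stood between 0.16 and 0.27 and the Fgfr3-WT clones between -0.15 and 0.15, while Gpc6 itself fell. On chromosome 2, which carries Sdc4, the cKO clones stood between 0.18 and 0.28 while Sdc4 fell, and Fgfr3-WT clone 5 at 0.43. On chromosome 15, which carries Sdc2, the cKO clones stood between 0.09 and 0.52 while Sdc2 fell, and the Fgfr3-WT clones between -0.51 and 0.23. On chromosome 1, which carries Gpc1, the cKO clones stood between -0.18 and -0.03, inside the Fgfr3-WT range of -0.37 to 0.12, while Gpc1 was called higher in P4M. The part of these shifts in the members' values was not tested.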
